A study of Mus musculus with 30 samples.

Results

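The potassium channel genes described here are 9 named subunits of the repolarising currents of heart muscle, taken by symbol from the 24467 genes listed for each library: Kcnd2, Kcnd3 and Kcnip2 of the transient outward current, Kcnj2, Kcnj3, Kcnj5 and Kcnj11 of the inward rectifiers, and Kcna5 and Kcnq1 of the delayed rectifiers. All 9 were found by their Entrez gene IDs, and all 9 were among the 13588 genes with enough counts to be tested. They were read in RNA of 30 mouse left ventricles, 1 library each. TG mice carry a transgene for the human relaxin receptor RXFP1 (hRXFP1), which the series title describes as specific to cardiomyocytes, and NTG mice are non-transgenic controls, titled wildtype. The load came from transverse aortic constriction (TAC), in which the aorta is tied narrow so that the left ventricle pumps against higher pressure. It lasted 8 weeks, and Sham mice were the operated controls. The groups were 10 TG TAC, 10 NTG TAC, 5 TG Sham and 5 NTG Sham hearts. The promoter of the transgene and the strain, sex and age of the mice are not given in the sources used here, and the transgene itself was not checked, because the values are for mouse genes. The labels number the replicates without saying whether each is a separate animal, so p-values measure the spread between these samples.

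Potassium channels carry the outward current that ends the cardiac action potential. In mouse ventricle the fast early repolarisation comes from the transient outward current, whose pores are formed by Kcnd2 and Kcnd3 with the calcium-binding subunit Kcnip2, and from delayed rectifiers such as Kcna5. Inward rectifiers set the resting potential (Kcnj2), answer to acetylcholine through G proteins (Kcnj3 with Kcnj5) or open when ATP falls (Kcnj11 with a sulfonylurea receptor), and Kcnq1 forms the slow delayed rectifier. Loss of transient outward subunits is a well known feature of hypertrophied and failing hearts.

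RefSeq promoters on the build GRCm38.p6 were matched for 7 of the 9 genes, all but Kcnq1 and Kcnj11. The 250 bases upstream of the start site are shown for 4 genes whose levels moved together between NTG TAC hearts (Kcnd2, Kcnip2, Kcnj3, Kcnj5). Kcna5 is also shown, which did not move with them over all 10 hearts. In the 7 of those hearts with a number under 100 in the sample name, Kcna5 also fell with markers of load (r = -0.77). Capitals mark matches, on either strand, to the GC box GGGCGG and the CCAAT box CCAAT.
Kcnd2: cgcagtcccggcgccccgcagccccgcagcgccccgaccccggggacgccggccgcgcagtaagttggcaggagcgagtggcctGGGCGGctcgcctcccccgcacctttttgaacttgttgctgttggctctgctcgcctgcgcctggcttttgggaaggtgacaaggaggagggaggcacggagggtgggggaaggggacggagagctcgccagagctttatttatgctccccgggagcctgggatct
Kcnip2: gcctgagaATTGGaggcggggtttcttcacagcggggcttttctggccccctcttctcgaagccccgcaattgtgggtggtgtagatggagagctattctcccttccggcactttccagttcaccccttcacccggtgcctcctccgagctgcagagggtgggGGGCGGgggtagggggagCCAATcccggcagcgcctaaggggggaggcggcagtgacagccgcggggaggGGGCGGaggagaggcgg
Kcnj3: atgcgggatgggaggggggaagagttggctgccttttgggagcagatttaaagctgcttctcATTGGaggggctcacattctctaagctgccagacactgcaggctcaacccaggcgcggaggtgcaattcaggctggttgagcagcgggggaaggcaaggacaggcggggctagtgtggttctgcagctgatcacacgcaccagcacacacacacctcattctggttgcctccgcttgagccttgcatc
Kcnj5: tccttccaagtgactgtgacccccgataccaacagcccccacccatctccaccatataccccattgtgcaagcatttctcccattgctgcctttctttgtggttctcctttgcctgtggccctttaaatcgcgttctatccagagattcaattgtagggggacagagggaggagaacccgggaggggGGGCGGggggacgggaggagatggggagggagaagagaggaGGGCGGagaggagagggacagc
Kcna5: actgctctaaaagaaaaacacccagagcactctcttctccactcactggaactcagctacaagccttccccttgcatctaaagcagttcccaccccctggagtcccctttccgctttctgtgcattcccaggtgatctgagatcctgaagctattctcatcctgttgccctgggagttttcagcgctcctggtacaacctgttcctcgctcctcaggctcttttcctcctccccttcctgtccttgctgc
The windows lie at chr6:21215096-21215345 (plus strand) for Kcnd2, chr19:45816064-45816313 (minus strand) for Kcnip2, chr2:55435720-55435969 (plus strand) for Kcnj3, chr9:32344345-32344594 (minus strand) for Kcnj5 and chr6:126535556-126535805 (minus strand) for Kcna5. GC boxes were found in 4 of the 7 promoters (Kcnd2, Kcnip2, Kcnj2 and Kcnj5), against 32.7% of 32851 mouse promoters of this length. CCAAT boxes were found in 3 of 7 (Kcnip2, Kcnj2 and Kcnj3), against 33.8% of all promoters. The classical core promoter letters TATAAA were found in 0 of 7, against 12.4% of all promoters. The cardiac zinc finger site AGATAA was in 0 of 7, against 9.99%, and the Iroquois factor site ACANNTGT was in 0 of 7, against 6.31%. The G and C content was 68.8% for Kcnd2, 66.8% for Kcnip2, 58.4% for Kcnj3, 58.0% for Kcnj5 and 53.2% for Kcna5, with a median of 52.4% over all promoters. The window of Kcna5 holds neither of the boxes in capitals, and nor does that of Kcnd3, which is not shown.

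Each library held between 9231678 and 13093351 counts, and 3 counts are worth 0.229 to 0.325 CPM (counts per 1e6 counts of the library). Values below are CPM scaled with TMM factors. The samples carried the markers of ventricular muscle, and of 5 atrial genes Sln, Myl7 and Bmp10 were near the floor, with at most 6, 14 and 3 counts in any library. The other atrial genes were present in every library, Myl4 at up to 6.33 CPM and Stard10 at 5.56 to 38.9 CPM. Summed over 6 ventricular cardiomyocyte markers, NTG TAC hearts had 38710 to 72848 CPM (median 62854), against 70652 to 80304 CPM in NTG Sham hearts, and 3 of the 6 markers were lower by the test. TG TAC hearts had 64546 to 75200 CPM of the same markers, against 69186 to 76489 CPM in TG Sham hearts, with 0 of 6 called. The sum of 5 fibroblast markers was 1010 to 3699 CPM in NTG TAC hearts and 1015 to 1276 CPM in NTG Sham hearts. In bulk tissue, fewer cardiomyocytes, less RNA per cardiomyocyte and lower levels of particular marker genes cannot be told apart. NTG Sham replicate 5 stood apart with 105 CPM of 4 T cell markers, against at most 8.55 CPM in any other library.

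Across genes, levels are compared as CPM per 1000 bases of exon. In NTG Sham hearts the order was Kcnip2 (96.2 ± 5.32), Kcnj11 (77.6 ± 6.60), Kcnj3 (21.9 ± 0.853), Kcnq1 (19.6 ± 1.29), Kcnj5 (15.8 ± 1.03), Kcnj2 (12.9 ± 1.27), Kcna5 (10.6 ± 1.87), Kcnd2 (4.26 ± 0.587) and Kcnd3 (1.64 ± 0.213) CPM per 1000 bases (mean ± SD, n = 5). The ranges of Kcnj3 and Kcnq1 overlapped, as did those of Kcnj2 and Kcna5, and the other neighbours in this order stood apart. The accessory subunit Kcnip2 was thus far above both pore subunits of its channel on this scale. NTG TAC hearts had Kcnip2 at 69.9 ± 27.6 and Kcnj11 at 69.7 ± 11.4 CPM per 1000 bases (n = 10), with overlapping ranges. Of Kcnj3 and Kcnq1, Kcnq1 had the higher mean in the 3 groups other than NTG Sham, with overlapping ranges in each. In NTG TAC hearts Kcnq1 was at 18.4 ± 2.69 and Kcnj3 at 12.9 ± 5.29 CPM per 1000 bases.

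The first comparison asks how the potassium channel genes of non-transgenic hearts responded to pressure overload. Of the 9 genes, 5 fell (Kcnd2, Kcnd3, Kcnj2, Kcnj3 and Kcnj5) and 0 rose at an adjusted p under 0.05 by the edgeR quasi-likelihood test. Among all 13588 genes tested, 8.13% fell and 17.6% changed in either direction. The median log2 fold change of the 9 genes was -0.46, against 0.00 over all genes, and 8 of the 9 were negative. Of the transient outward genes 2 of 3 fell (not Kcnip2), of the inward rectifiers 3 of 4 (not Kcnj11), and of the delayed rectifiers 0 of 2.

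**Figure D1:**
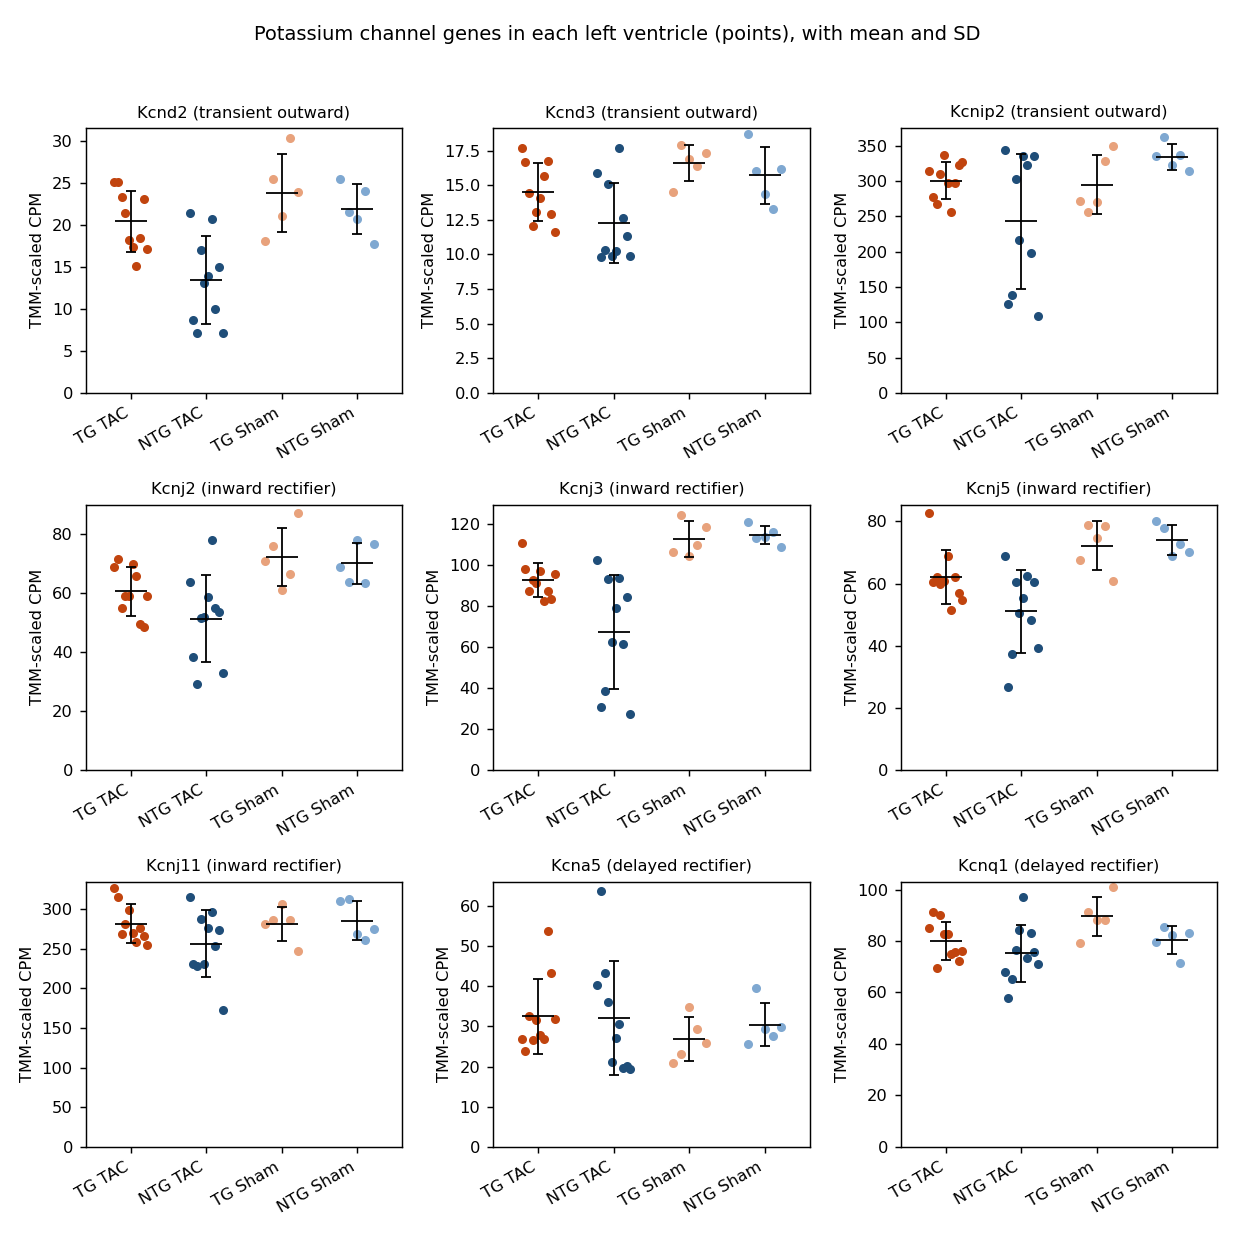
Levels of the 9 potassium channel genes in single hearts, as TMM-scaled CPM on axes that start at 0. Points are hearts in replicate order, with TG TAC hearts at the left, then NTG TAC hearts, TG Sham hearts and NTG Sham hearts, and the black lines give the mean and SD. NTG TAC hearts of Kcnip2 ran from 109 to 344 CPM, a wider range than the 256 to 336 CPM of TG TAC hearts.

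Kcnd2 encodes the main pore subunit of the fast transient outward current in rodent ventricle (gene ID 16508, chr6:21215503-21729805). It had a lowest level of 7.13, a median of 13.6 and a highest of 21.5 CPM in 10 NTG TAC hearts, against 25.5, 21.6, 20.7, 24.1 and 17.7 CPM in the 5 NTG Sham hearts. Of the TAC hearts, 8 lay below the lowest Sham heart, and replicates 1 and 7 reached the Sham range. Its log2 fold change was -0.72 ± 0.20 (SE, adjusted p = 0.0166, edgeR quasi-likelihood test), a fold of 0.608.

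Kcnd3 encodes a second pore subunit of the same current (gene ID 56543, chr3:105452330-105674002). NTG TAC hearts had 9.81 to 17.7 CPM with a median of 10.8, against 18.7, 15.999, 14.3, 13.3 and 16.2 CPM in NTG Sham hearts. In 7 of 10 TAC hearts the level was below every Sham heart, so the groups overlapped. The log2 fold change of -0.36 ± 0.13 passed narrowly (adjusted p = 0.0477, edgeR). The call was lost in 21 of the 30 fits that left out 1 library (adjusted p up to 0.154) and with library totals, no filter, the replicate block or the name number. Kcnd3 shares 165 exon bases with the antisense gene Kcnd3os, which had 4 to 16 counts per library, and the strand setting of the counting is not given in the sources used here.

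Kcnip2, the calcium-binding subunit that brings Kcnd channels to the cell surface (gene ID 80906, chr19:45791839-45816061), had 109 to 344 CPM in NTG TAC hearts, with a median of 259.96, against 335, 363, 323, 337 and 314 CPM in NTG Sham hearts. Replicates 2, 3 and 10 were lowest at 126, 138 and 109 CPM, and 4 of the 10 TAC hearts reached the Sham range. At -0.46 ± 0.20, the log2 fold change did not pass (adjusted p = 0.106, edgeR). It passed with limma voom and quality weights, at -0.43 (adjusted p = 0.0402).

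Kcnj3 and Kcnj5 form the acetylcholine-gated channel, best known from atria. Kcnj3 (gene ID 16519, chr2:55435970-55598145) had 27.1 to 102 CPM with a median of 70.7 in NTG TAC hearts, against 121, 113, 114, 116 and 109 CPM in NTG Sham hearts. Every TAC heart lay below every Sham heart, which held for 0.78% of all genes tested. The log2 fold change was -0.77 ± 0.21 (adjusted p = 0.0131, edgeR), a fold of 0.586. Kcnj3 shares 1621 of its 5215 exon bases with Gm26794 on the opposite strand, so part of its counts could belong to that gene.

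Kcnj5 (gene ID 16521, chr9:32314707-32344350) had 26.8 to 69.0 CPM with a median of 52.9 in NTG TAC hearts, against 80.1, 77.8, 68.8, 72.8 and 70.3 CPM in NTG Sham hearts. Replicate 1 of the TAC hearts, at 69.0 CPM, just passed the lowest Sham heart, and the other 9 lay below. Its log2 fold change was -0.54 ± 0.14 (adjusted p = 0.0110, edgeR). Markers of atrial and conduction muscle, where these channels are well known, had lower medians in NTG TAC hearts, at 21.7 against 33.2 CPM for the atrial and 62.0 against 78.2 CPM for the conduction list in NTG Sham hearts. The sum of the 5 atrial genes, mostly Stard10, was 7.84 to 31.0 CPM in NTG TAC hearts, against 31.0 to 37.7 CPM in NTG Sham hearts, with 1 of the 2 that could be tested called lower, while Sln was at 0 in 25 of 30 libraries and Bmp10 in 18. The sum of 5 conduction system genes was 53.4 to 74.5 CPM in NTG TAC hearts and 70.7 to 80.4 CPM in NTG Sham hearts, with 1 of 5 called lower. Their part in the result was not tested.

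Kcnj2 encodes the classical inward rectifier that holds the resting potential (gene ID 16518, chr11:111066164-111076821). Its level was 29.2 to 78.1 CPM with a median of 52.8 in NTG TAC hearts, against 68.9, 63.8, 78.0, 63.4 and 76.7 CPM in NTG Sham hearts. TAC replicate 7, at 78.1 CPM, was above all Sham hearts, and 8 TAC hearts were below all of them. The log2 fold change was -0.46 ± 0.15 (adjusted p = 0.0376, edgeR), and the call was lost when replicate 1, 3, 4 or 5 of the NTG Sham group was left out, or replicate 2, 3 or 10 of the NTG TAC group (adjusted p up to 0.0910).

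Kcnj11, the pore of the ATP-sensitive channel (gene ID 16514, chr7:46093953-46100764), had 173 to 315 CPM in NTG TAC hearts and 261 to 312 CPM in NTG Sham hearts. Its log2 fold change, -0.16 ± 0.09, did not pass (adjusted p = 0.240, edgeR). Kcna5, a rapidly activating delayed rectifier (gene ID 16493, chr6:126532551-126535412), had 19.3 to 63.7 CPM in NTG TAC hearts, against 25.6, 39.5, 29.4, 27.6 and 29.9 CPM in NTG Sham hearts. Its TAC hearts lay on both sides, with 4 below and 3 above every Sham heart (log2 fold change 0.08 ± 0.24, adjusted p = 0.851, edgeR). The 3 above were replicates 1, 2 and 3, at 40.4, 63.7 and 43.2 CPM. They are also the 3 NTG TAC libraries whose sample names hold a number of 100 or more. Kcnq1, the pore of the slow delayed rectifier (gene ID 16535, chr7:143106362-143427042), had 57.9 to 97.0 CPM in NTG TAC hearts and 71.6 to 85.3 CPM in NTG Sham hearts, and its log2 fold change was -0.10 ± 0.08 (adjusted p = 0.443, edgeR). It shares 121 exon bases with the antisense Kcnq1ot1, which had 91 to 190 counts per library.

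The decline was uneven between NTG TAC hearts. Replicate 10 had 9 of the 9 genes below the lowest NTG Sham heart, replicates 2, 3, 5 and 8 had 8 each, and replicates 1 and 7 had 2 each. The share of all genes below the lowest NTG Sham heart was not counted for single hearts. These counts are therefore not shown to be particular to the channel genes. Without NTG Sham replicate 5, the library with T cell markers, 3 of 9 genes were called (Kcnd2, Kcnj3 and Kcnj5). The summed cardiomyocyte markers were also lower in NTG TAC hearts, and their part in the result was not tested. When counts were scaled to those markers, a choice made after seeing the data, the median of all genes shifted to 0.33 on the log2 scale, and 53.5% of all genes were called higher and 1.91% lower. On that scale Kcnd2 (-0.44, adjusted p = 0.0207) and Kcnj3 (-0.52, adjusted p = 0.00597, edgeR) were still lower, while Kcnd3 (-0.06), Kcnj2 (-0.18) and Kcnj5 (-0.25) did not pass. Kcnq1 and Kcnj11 turned positive there, at 0.22 and 0.14, and did not pass.

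The 2-group fit of NTG TAC and NTG Sham alone, in place of 1 spread estimated over all 4 groups, called 0 of the 9 genes and 1.64% of all genes, with adjusted p of 0.0867 for Kcnj5, 0.0990 for Kcnd2 and 0.113 for Kcnj3. Sample names hold a number of unstated meaning. It was 100 or higher in 1 of 10 TG TAC, 3 of 10 NTG TAC, 5 of 5 TG Sham and 4 of 5 NTG Sham libraries. With that number as a term the test called 3 of 9 genes (Kcnj2, Kcnj3 and Kcnj5).

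Transgenic hearts were compared in the same way. Of the 9 genes, 0 were called for TAC against Sham in TG hearts, against 1.43% of all genes, and 0 had an unadjusted p under 0.05. DESeq2 and limma voom also called 0. The median log2 fold change was -0.20, against 0.00 over all genes, and 7 of 9 were negative. Kcnj3 had 82.5 to 111 CPM with a median of 91.9 in TG TAC hearts, against 106, 124, 104, 109.6 and 119 CPM in TG Sham hearts. All but replicate 1 of the TG TAC hearts were below the lowest TG Sham heart. The fitted log2 fold change, -0.28 ± 0.21, did not pass (adjusted p = 0.566, edgeR), with an interval (95%) from -0.69 to 0.12. It passed when only the TG groups were fitted (adjusted p = 0.00558).

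Kcnd2 had 15.2 to 25.2 CPM with a median of 19.9 in TG TAC hearts, against 18.1, 25.5, 21.1, 30.5 and 24.0 CPM in TG Sham hearts. Those ranges overlapped widely (log2 fold change -0.22 ± 0.20, adjusted p = 0.660, edgeR). Kcnip2 had 256 to 336 CPM in TG TAC hearts, against 271, 256, 269.6, 328 and 349.6 CPM in TG Sham hearts, and its log2 fold change was 0.03 ± 0.20 (adjusted p = 0.969). Kcnj2 was below the TG Sham mean in 10 of 10 TG TAC hearts, at 48.5 to 71.6 CPM against 61.0 to 87.1 CPM in TG Sham hearts (log2 fold change -0.25 ± 0.15, adjusted p = 0.459, edgeR).

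**Figure D2:**
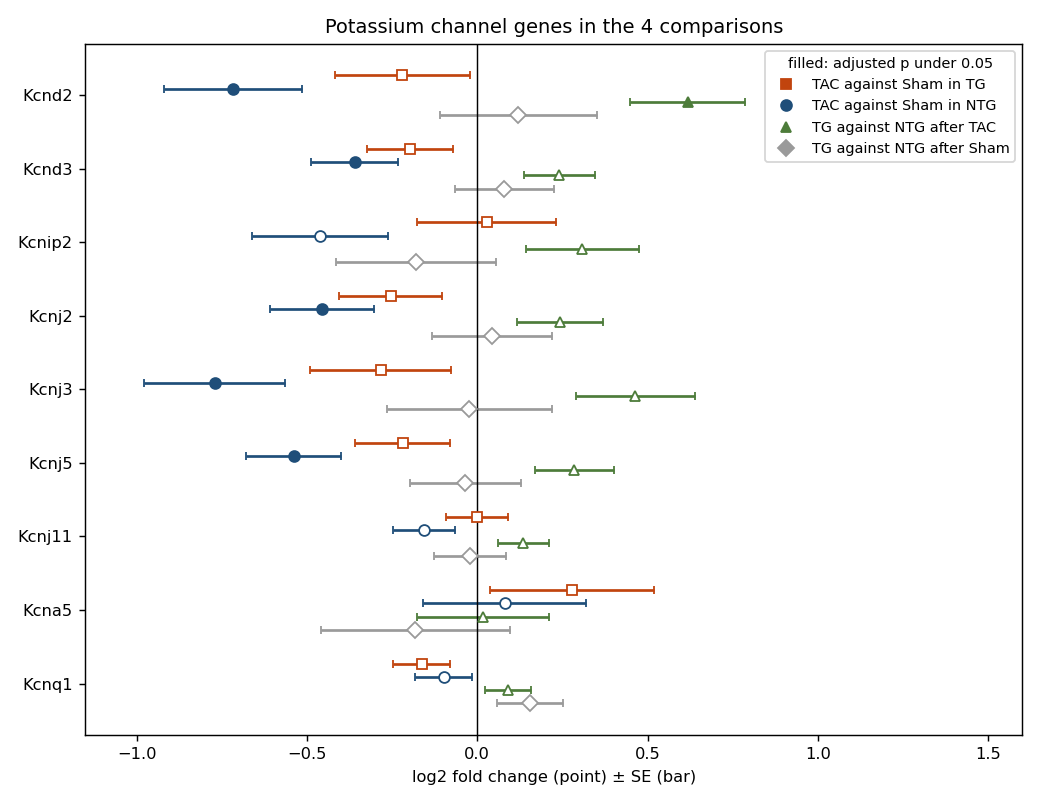
Log2 fold changes of the 9 potassium channel genes in 4 comparisons, with bars of 1 SE and filled symbols where the adjusted p was under 0.05. TAC against Sham in NTG hearts has 5 filled symbols, all left of 0, and TG against NTG after TAC has 1, Kcnd2 at 0.62.

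The third comparison asks whether the transgene moved these genes under load. After TAC, Kcnd2 was higher in TG than in NTG hearts and was the 1 gene of 9 called, against 4.57% of all genes called higher and 11.4% in either direction. That count is near the share called in either direction. It had 15.2 to 25.2 CPM (median 19.9) in TG TAC hearts, against 7.13 to 21.5 CPM (median 13.6) in NTG TAC hearts. All 10 TG hearts were above the NTG TAC mean and 4 were above every NTG TAC heart. The log2 fold change was 0.62 ± 0.17 (adjusted p = 0.0197, edgeR), a fold of 1.53, and it kept its call in each of the 30 fits that left out 1 library. The call was lost when only the TG TAC and NTG TAC hearts were fitted (adjusted p = 0.058, edgeR), a fit that called 4.61% of all genes.

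All 9 log2 fold changes were positive, with a median of 0.24 against -0.01 over all genes. Kcnj3 had 82.5 to 111 CPM in TG TAC hearts and 27.1 to 102 CPM in NTG TAC hearts, and its log2 fold change of 0.46 ± 0.17 (adjusted p = 0.0774, edgeR) passed with DESeq2 (adjusted p = 0.0410). It also passed without NTG TAC replicate 1, 4 or 7 (adjusted p = 0.0262 without replicate 1). Kcnj5 (0.28 ± 0.12, adjusted p = 0.106), Kcnip2 (0.31 ± 0.17, adjusted p = 0.228), Kcnd3 (0.24 ± 0.11, adjusted p = 0.129) and Kcnj2 (0.24 ± 0.13, adjusted p = 0.208) did not pass. Kcnj11 (0.13 ± 0.07), Kcnq1 (0.09 ± 0.07) and Kcna5 (0.02 ± 0.19) lay nearer to 0. Since TG TAC and NTG TAC hearts also enter the TAC comparisons, these values are not independent of them.

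Without load the transgene moved 0 of the 9 genes past the threshold, against 0.729% of all genes, and 0 of 9 had an unadjusted p under 0.05 by edgeR. DESeq2 and limma voom called 0 too. The log2 fold changes of TG Sham against NTG Sham ran from -0.18 (Kcna5 and Kcnip2) to 0.16 (Kcnq1), with a median of -0.02. For Kcnd2 the interval (95%) ran from -0.33 to 0.57 and for Kcnj3 from -0.50 to 0.45, so changes within those bounds are not excluded.

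The interaction, the TAC effect in TG hearts minus that in NTG hearts, was called for 0 of the 9 genes and for 0% of all genes tested, and 0 of 9 had an unadjusted p under 0.05 (edgeR; DESeq2 and limma voom called 0 of 9). The values were 0.50 ± 0.29 for Kcnd2, 0.49 ± 0.29 for Kcnip2 and 0.49 ± 0.30 for Kcnj3 on the log2 scale (adjusted p = 0.624, 0.631 and 0.636, edgeR), and 8 of the 9 were positive. The calls in NTG and their absence in TG hearts are therefore not shown to differ.

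For each of the channel genes, levels varied less between TG TAC hearts than between NTG TAC hearts. The spread over all genes was not compared, so this is not shown to be particular to the channel genes. On the log2 scale the SD between hearts was 0.13 in TG TAC and 0.65 in NTG TAC for Kcnip2, against 0.20 in TG Sham and 0.08 in NTG Sham. For Kcnj3 it was 0.13 in TG TAC and 0.70 in NTG TAC, against 0.11 in TG Sham and 0.06 in NTG Sham. Kcnd2 had 0.26 in TG TAC and 0.58 in NTG TAC. The groups were nearer for Kcnd3, at 0.21 in TG TAC and 0.32 in NTG TAC, and for Kcnq1, at 0.13 and 0.21. These SDs are given without a test, because the difference was noticed in the same values.

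Single hearts were then set against markers of load, the mean log2 CPM of Nppb, Acta1, Ankrd1 and Myh7, genes that stressed heart muscle raises. The marker mean ran from 9.36 to 10.74 (median 10.57) in TG TAC hearts and from 9.87 to 12.35 (median 11.17) in NTG TAC hearts. Over the 18 relations tested (9 genes in 2 groups), permutation p-values were adjusted together. In NTG TAC hearts 7 of 9 genes fell with the marker mean at an adjusted p under 0.05. The largest gap between neighbouring NTG TAC hearts on the marker axis, from 10.81 to 11.54, was 29.4% of the range. Above it lay replicates 2, 3, 5, 8 and 10, the hearts with 8 or 9 genes below the lowest NTG Sham heart. That count was not made over all genes, so it is not shown to be particular to the channel genes. Whether the NTG TAC hearts form separate sets or a graded series was not tested.

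Kcnd2 had Pearson r = -0.96 (n = 10, permutation p = 3.0e-05, adjusted p = 0.00054) and Spearman rho = -0.93 (permutation p = 0.00035, adjusted p = 0.0021) in NTG TAC hearts, and r was -0.93 without the 2 hearts farthest from the median. Kcnj5 had r = -0.91 (permutation p = 8.0e-05, adjusted p = 0.00072) and rho = -0.95 (permutation p = 9.0e-05, adjusted p = 0.0016), with r = -0.92 without those 2 hearts. Kcnj3 had r = -0.91 (permutation p = 0.00022, adjusted p = 0.0013) and rho = -0.94 (permutation p = 0.00023, adjusted p = 0.0021), with r = -0.92 without them. Kcnip2, which had not passed as a group mean, had r = -0.91 (permutation p = 0.00068, adjusted p = 0.0024) and rho = -0.83 (permutation p = 0.0049, adjusted p = 0.018), with r = -0.95 without them.

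The other genes called in NTG TAC hearts were Kcnj2 (r = -0.88, rho = -0.81, permutation p = 0.0004 and 0.0074), Kcnj11 (r = -0.82, rho = -0.88, permutation p = 0.0021 and 0.0016) and Kcnd3 (r = -0.82, rho = -0.78, permutation p = 0.0042 and 0.0103), with r of -0.81, -0.74 and -0.58 without the 2 farthest hearts. Kcnq1 (r = -0.33, rho = -0.37, permutation p = 0.36 and 0.29) and Kcna5 (r = 0.10, rho = 0.03, permutation p = 0.79 and 0.94) did not pass. Among all genes tested in these hearts, 8.27% had r below -0.8 and 8.04% had r above 0.8. The summed cardiomyocyte markers had r = -0.72 with the same load markers, and their part in the relation was not tested. Within the 7 NTG TAC hearts with a name number under 100, r was -0.93 for Kcnd2, -0.84 for Kcnip2, -0.84 for Kcnj3 and -0.91 for Kcnj5. In those 7 hearts r was -0.77 for Kcna5, whose 3 highest NTG TAC hearts have a number of 100 or more.

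**Figure D3:**
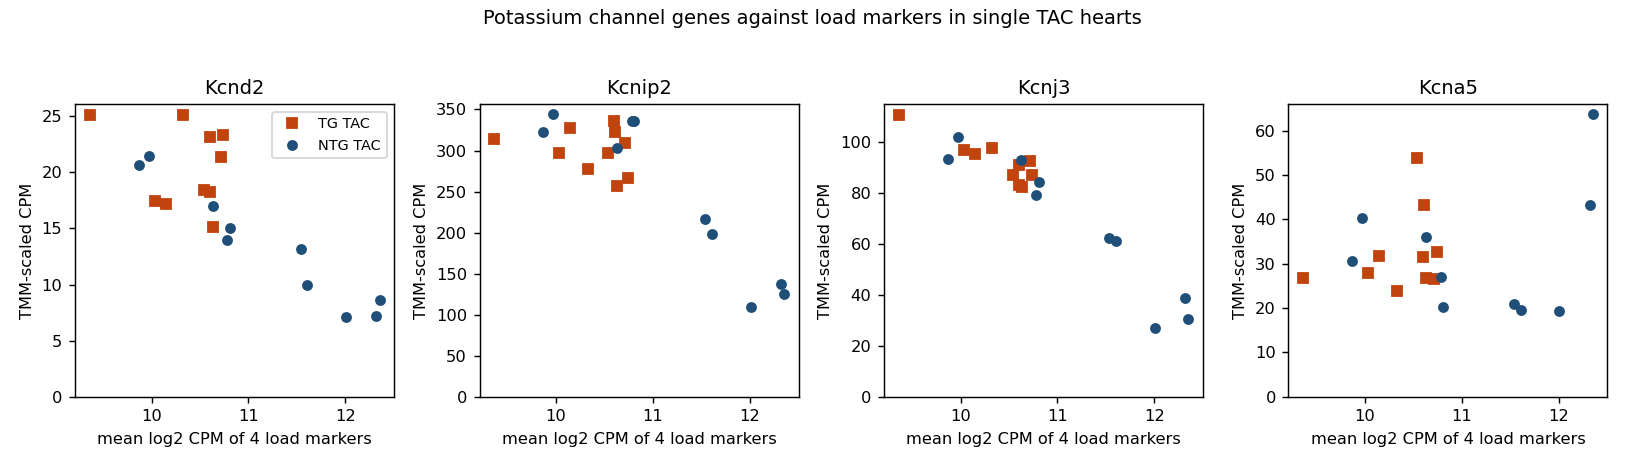
TMM-scaled CPM of Kcnd2, Kcnip2, Kcnj3 and Kcna5 (vertical axes, from 0) against the mean log2 CPM of 4 load markers (horizontal axes) in single TG TAC (squares) and NTG TAC (circles) hearts. Kcnd2, Kcnip2 and Kcnj3 are low in the NTG TAC hearts with the highest marker means, and Kcna5 has its highest value, 63.7 CPM, in one of them.

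TG TAC hearts covered a narrower range of the load marker mean, which is a level of transcripts and not a measured pressure. Kcnj3 had r = -0.87 (n = 10, permutation p = 0.0019, adjusted p = 0.0054) and rho = -0.71 (permutation p = 0.026, adjusted p = 0.059), with r = -0.62 without the 2 farthest hearts. Kcnj5 had r = -0.75 (permutation p = 0.023, adjusted p = 0.046) and rho = -0.39 (permutation p = 0.26, adjusted p = 0.43), but r turned to 0.27 without the 2 farthest hearts, so the relation rests on them. The other 7 genes did not pass, with r from -0.56 (Kcnj2) to 0.30 (Kcna5). The summed cardiomyocyte markers had r = -0.81 with the load markers in these hearts, and 1.251% of all genes had r below -0.8. In the 9 TG TAC hearts with a name number under 100, r was -0.70 for Kcnj3 and -0.28 for Kcnj5.

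Ratios of partner subunits within a library do not depend on scaling. Of 16 tests (4 ratios in 4 comparisons), 0 passed after adjustment, and 6 had an unadjusted p under 0.05. Kcnj3 to Kcnj5 had a log2 ratio of counts of 0.31 ± 0.35 (SD, n = 10) in NTG TAC hearts, against 0.63 ± 0.07 (n = 5) in NTG Sham hearts (exact permutation p = 0.00799, adjusted p = 0.0697). The lowest was NTG TAC replicate 10 at -0.54, the one heart with more Kcnj5 than Kcnj3 counts. In TG TAC hearts that log2 ratio was 0.58 ± 0.12, against 0.31 ± 0.35 in NTG TAC hearts (n = 10 each, permutation p = 0.0131, adjusted p = 0.0697).

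Kcnd2 to Kcnd3 had a log2 ratio of 0.49 ± 0.29 in TG TAC hearts, against 0.06 ± 0.40 in NTG TAC hearts (n = 10 each, permutation p = 0.0119, adjusted p = 0.0697), and that NTG TAC value stood against 0.48 ± 0.26 in NTG Sham hearts (n = 5, exact permutation p = 0.0473, adjusted p = 0.126). NTG TAC replicates 2, 3, 8 and 10 had more Kcnd3 than Kcnd2 counts. Kcnj11 to Abcc9, the pore against the sulfonylurea receptor of cardiac ATP-sensitive channels, was -0.50 ± 0.28 in NTG TAC hearts, against -0.83 ± 0.15 in NTG Sham hearts (exact permutation p = 0.0200, adjusted p = 0.0799). Kcnd2 to Kcnip2 had adjusted p of 0.119 or more in the 4 comparisons.

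**Figure D4:**
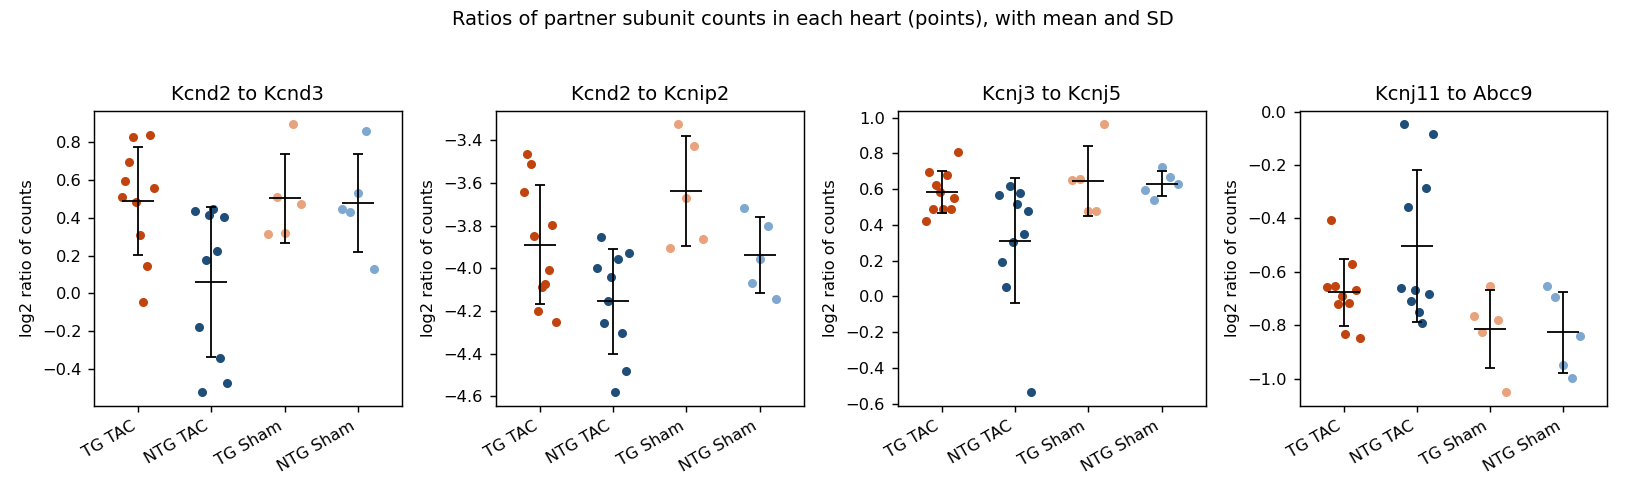
Log2 ratios of the counts of partner subunits in single hearts (points) by group, with the mean and SD as black lines. For Kcnj3 to Kcnj5, NTG TAC replicate 10 lies lowest at -0.54, while the TG TAC hearts lie between 0.42 and 0.81.

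A wider list of 59 potassium channel genes and of transcription factors tied to their gradients in the ventricle, of which 41 had enough counts, was read from the same fit. For TAC against Sham in NTG hearts 5 rose and 7 fell, against 9.46% and 8.13% of all genes, with a median log2 fold change of -0.14. All 12 calls were lost when only the NTG groups were fitted. Kcnj14, an inward rectifier pore, rose the most. It had 1.22 to 18.8 CPM (median 5.11) in NTG TAC hearts, against 0.766 to 1.51 CPM in NTG Sham hearts (log2 fold change 2.70 ± 0.61, adjusted p = 0.00531, edgeR). Kcnc1 (1.49 ± 0.38), Kcnd1 (1.002 ± 0.27), Kcnn3 (0.81 ± 0.28) and the accessory subunit Kcne4 (0.79 ± 0.24) also rose, all with low counts. The call of Kcnn3 was lost in 9 of 30 fits without 1 library and that of Kcne4 in 3. Kcnd1, the third gene of the Kcnd family, had 0.937 to 2.92 CPM in NTG TAC hearts and 0.649 to 1.10 CPM in NTG Sham hearts, opposite in direction to Kcnd2 and Kcnd3.

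Of the 7 that fell, Kcna2 had 0.571 to 4.00 CPM in NTG TAC hearts, against 3.74 to 5.81 CPM in NTG Sham hearts (log2 fold change -1.37 ± 0.29, adjusted p = 0.00369, edgeR). Kcnv2, a modifier subunit with no current of its own, had 0.713 to 12.0 CPM in NTG TAC hearts and 9.09 to 12.0 CPM in NTG Sham hearts (-1.20 ± 0.42, adjusted p = 0.0485). The others were Kcna6 (-1.04 ± 0.33), Hey2, a transcriptional repressor of the compact ventricular wall (-0.42 ± 0.15), Abcc9 (-0.42 ± 0.15), Kcnh2, the pore of the rapid delayed rectifier (-0.34 ± 0.12), and Abcc8, a second sulfonylurea receptor (-0.27 ± 0.08). The calls of Kcnv2 and Abcc9 were each lost in 25 of 30 fits without 1 library, that of Kcnh2 in 16 and that of Hey2 in 10, and scaling to cardiomyocyte markers ended the calls of Kcnh2, Hey2, Abcc9 and Abcc8. In TG hearts the same test called 1 gene of 41, Kcnc1, against 1.43% of all genes. Its log2 fold change was 1.48 ± 0.35 (adjusted p = 0.0215, edgeR). Kcnc1 was at 0.748 to 2.34 CPM in TG TAC hearts and 0.281 to 0.734 CPM in TG Sham hearts. Those TG Sham levels were 3 to 7 counts. The call was lost in 3 of 30 fits without 1 library (edgeR adjusted p up to 0.0909).

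**Figure D5:**
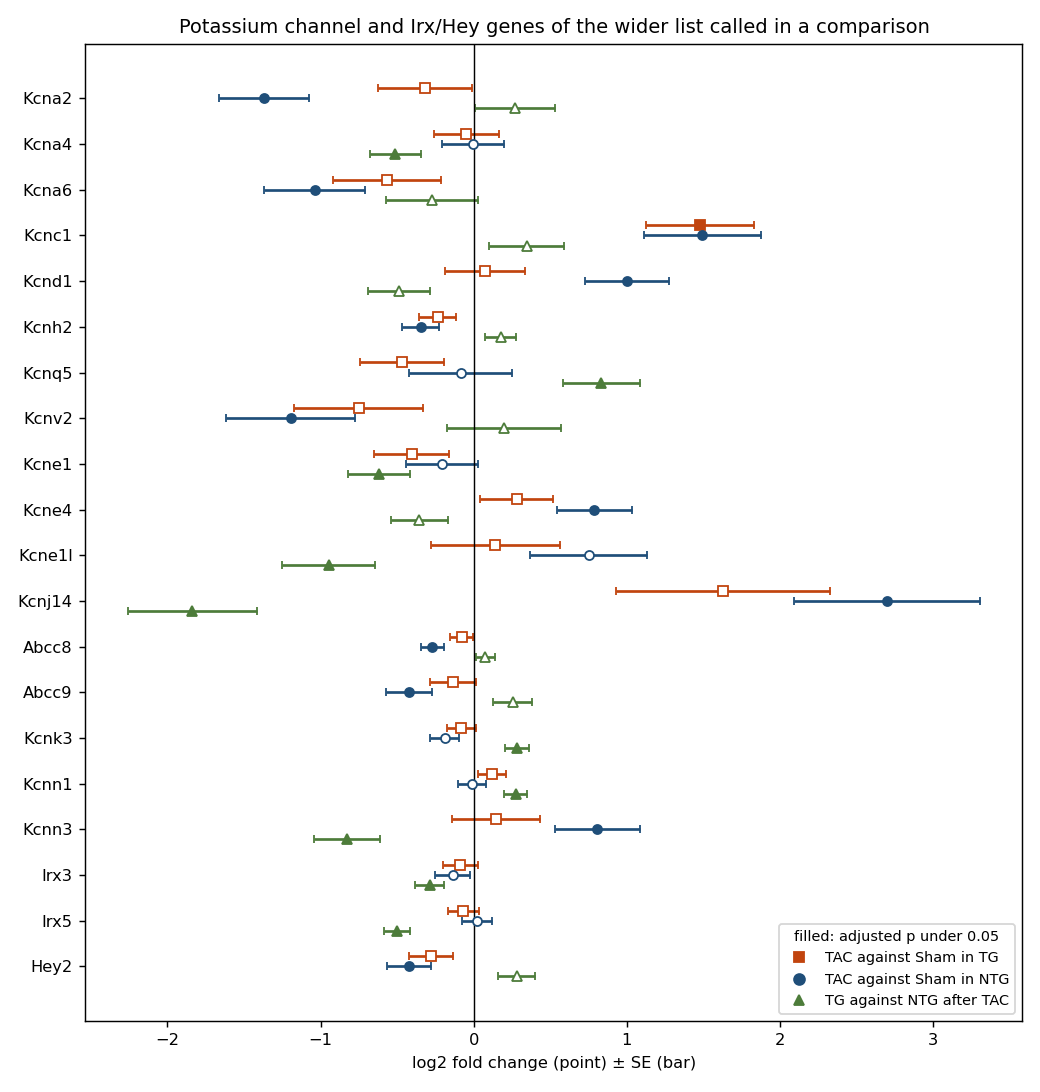
Log2 fold changes of 20 of the 21 genes of the wider list that were called in any comparison, with bars of 1 SE and filled symbols where the adjusted p was under 0.05. Kcnj14 lies at 2.70 for TAC against Sham in NTG hearts and at -1.84 for TG against NTG after TAC.

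After TAC, 4 genes of the wider list were higher and 7 lower in TG than in NTG hearts, against 4.57% and 6.86% of all genes. When only the TAC groups were fitted, 9 of these 11 had enough counts, and 5 of the 9 lost their call (Irx3, Kcna4, Kcne1, Kcnk3 and Kcnn1). Irx5, an Iroquois factor known for repressing Kcnd2 in the mouse ventricle wall, fell the most clearly. It had 20.2 to 32.4 CPM (median 26.4) in TG TAC hearts, against 31.2 to 45.1 CPM (median 35.4) in NTG TAC hearts. The groups overlapped between 31.2 and 32.4 CPM, and the log2 fold change was -0.50 ± 0.08 (adjusted p = 0.000232, edgeR). In Sham hearts Irx5 had 22.5 to 31.5 CPM in TG and 30.4 to 40.5 CPM in NTG hearts (-0.41 ± 0.12), which did not pass (adjusted p = 0.118). Its relative Irx3 was lower too after TAC (-0.29 ± 0.09, adjusted p = 0.0460), a call lost in 16 of 30 fits without 1 library.

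Kcnj14 was lower in TG TAC hearts, at 0.561 to 3.49 CPM against 1.22 to 18.8 CPM in NTG TAC hearts (log2 fold change -1.84 ± 0.42, adjusted p = 0.00793, edgeR). Kcne1l (-0.95 ± 0.30), Kcnn3 (-0.83 ± 0.22), Kcne1, the accessory subunit of Kcnq1 (-0.62 ± 0.20), and Kcna4, a pore of the slow transient outward current (-0.51 ± 0.17), were also lower. The calls of Kcne1 and Kcna4 were lost in 14 and 12 of 30 fits without 1 library. That of Kcne1l was lost in 8 of the 26 such fits that tested it. Among the higher genes in TG TAC hearts were Kcnq5 (0.83 ± 0.25), Kcnk3, a background leak channel (0.28 ± 0.08), and Kcnn1 (0.27 ± 0.07). Scaled to cardiomyocyte markers, Kcnk3, Kcnq5 and Kcnn1 no longer passed. Kcnk3 was abundant, with 488 to 643 CPM in TG TAC hearts and 346 to 555 CPM in NTG TAC hearts. For Sham hearts and for the interaction, 0 of 41 genes were called by edgeR, with 7 and 3 at an unadjusted p under 0.05. Over all genes 0.729% and 0% were called. Without load, TG against NTG was 1.22 ± 0.35 for Kcnq5 (adjusted p = 0.126, edgeR), larger than after TAC. It was -0.47 for Kcna4, -0.42 for Kcne1 and -0.34 for Irx3. Smaller sizes than after TAC were seen for Kcnj14 (-0.76), Kcne1l (-0.34), Kcnn3 (-0.17) and Kcnk3 (0.17). The differences after TAC are therefore not shown to depend on load.

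For each potassium channel gene, the genes with the most similar levels were found from log2 CPM after subtracting the group means, over 30 libraries and as a description. Kcnj3 was closest to Kyat3 and Maob (both r = 0.97) and Asb14 (0.97), Kcnip2 to Fdft1 (0.97), Hopx (0.96) and Dele1 (0.95), and Kcnd2 to Ghr (0.90) and Pank1 (0.89). Much of this likeness lay in the NTG TAC hearts. Without them (20 libraries) r was 0.70 for Kcnj3 with Kyat3, 0.72 for Kcnip2 with Fdft1 and 0.75 for Kcnd2 with Ghr.

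Kcnj5 was closest to Plxnb1 (0.92), Cadm4 and Gal3st3, Kcnj11 to Smtn (0.92), Fsd2 and Tmem201, and Kcnj2 to Prkab1 (0.88), Angpt1 and Ttc30b. The nearest genes of Kcnd3 were Mapk14 (0.81), Adra1b and Agpat3, those of Kcna5 were S1pr1 (0.82), Noct and Klf4, and those of Kcnq1 were Pnkd (0.76), Sox12 and Steap3. Between the potassium channel genes themselves, r was 0.93 for Kcnip2 with Kcnj3, 0.86 for Kcnj3 with Kcnj5 and 0.83 for Kcnd2 with Kcnj3, and 0.23, 0.59 and 0.46 in the same order without the NTG TAC hearts. Kcna5 had r of -0.52 with Kcnq1 and -0.36 with Kcnj2 over the 30 libraries. Without the NTG TAC hearts r was -0.26 with Kcnq1 and -0.73 with Kcnj2.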

How the data were processed

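RNA of 30 mouse left ventricles was sequenced as strand-specific mRNA libraries, per the labels' protocols. Per the submitters' processing notes, Trim Galore 0.6.4, TopHat, Bowtie2 2.2.9, edgeR 3.17 and the build mm10 were used. The counting program and its strand setting are not given in the sources used here. The authors deposited raw counts per gene and CPM, and the deposited CPM equalled count over library total in 30 of 30 libraries. The tests used the counts. Symbols came from RefSeq for 24437 gene IDs, and exon lengths and positions from GENCODE on GRCm38. The potassium channel genes, the wider list, the markers and the tests were chosen with earlier results of these data known.

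In R 4.3.3, 1 quasi-likelihood model of edgeR 4.0.16 (robust, TMM factors, filterByExpr with a minimum count of 10) was fitted to all libraries with the 4 groups as terms. Tests were two-sided, with Benjamini-Hochberg adjustment over 13588 genes and a threshold of 0.05. A standard error is the absolute log2 fold change over the square root of F. The model was tested on simulated data. Log2 CPM used a prior count of 2. Ratios (0.5 added to each count) and correlations were tested two-sided by permutation in SciPy 1.17.1, exactly for ratios of 10 against 5 or 5 against 5 hearts and otherwise with 100000 resamples. Genes named were the 9 channel genes, each gene of the wider list called in any comparison, the 3 genes most similar to each channel gene, Abcc9 and the load markers, except 2 genes that are not reported here.

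Alternatives were RLE factors, library totals, no filter, DESeq2 1.42.0, limma 3.58.1 voom, the groups compared alone, the replicate block, the name number, scaling to cardiomyocyte markers (added after seeing the data) and leaving out each library. The replicate numbers were not taken as pairs, since samples sharing a number did not deviate together (35 such pairs, median r of the deviations 0.05, range -0.15 to 0.55, with 8 over 0.1). No libraries of a group were alike within counting error (lowest chi-square per degree of freedom 2.76 over 110 pairs).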

Additional observations from a re-analysis of the deposited data

How the results depend on the processing

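For TAC against Sham in NTG hearts, 5 of the 9 potassium channel genes were called, and 3 with no filter on low counts, 3 with the name number as a term, 2 with scaling to cardiomyocyte markers (with 1.91% of all genes called lower) and 0 when only the groups compared were fitted (1.64% of all genes called). Leaving out 1 library at a time gave 3 to 5. It was 3 when NTG Sham replicate 1, 3 or 5 was left out, or NTG TAC replicate 2, 3 or 10. For TAC against Sham in TG hearts the count was 0, and 1 (Kcnj3) with only the groups compared (7.22% of all genes). For TG against NTG after TAC it was 1, and 2 with DESeq2, 2 with scaling to cardiomyocyte markers and 0 with only the groups compared (Kcnd2 adjusted p = 0.058, 4.61% of all genes called). That fit also lost 12 of 12 calls of the wider list for TAC in NTG hearts and 5 of 9 for TG against NTG after TAC. Leaving out 1 library gave 1 to 3 there, with 3 without NTG TAC replicate 1 or 7. With the replicate block, 4 genes were called for TAC in NTG hearts (Kcnd3 was lost, adjusted p = 0.0567) and 1 for TG against NTG after TAC, and 9 calls of single genes were lost in all, the other 8 in the wider list. The name number as a term left Kcnd2 at an adjusted p of 0.0552 for TAC in NTG hearts. Abcc8 changed sign for TAC in NTG hearts when scaled to cardiomyocyte markers (0.0366). RLE factors changed no call of the 9 genes. With Nppa and Nppb as the load markers, Kcnd3 in NTG TAC hearts (r = -0.72, permutation adjusted p = 0.0567) and Kcnj5 in TG TAC hearts (r = -0.72, permutation adjusted p = 0.0760) no longer passed. Without NTG TAC replicate 1 or 4 the Kcnj3 to Kcnj5 ratio passed in 2 comparisons (permutation adjusted p = 0.0490 and 0.0497), and without NTG TAC replicate 1 so did Kcnd2 to Kcnd3 for TG against NTG after TAC (0.0490). Where calls changed, the cause was not tested. Depth limits the low genes of the wider list, such as Kcnc1 with 3 to 5 counts in NTG Sham hearts.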
